A study of Saccharomyces cerevisiae with 22 samples.

Results

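The genes of chromosome XIV of Saccharomyces cerevisiae were examined as a block in strains with an alanine substitution in a histone. The members are the gene probes whose systematic name starts with YNL (left arm) or YNR (right arm), without the histone genes HHT2 and HHF2, which carry the substitutions, and without the mating pheromone gene MFA2. They comprised 355 of 6388 gene probes and covered 352 genes, 286 probes on the left arm and 69 on the right; 3 genes (RPL9B, YNL034W and YNR065C) had 2 probes each. The chromosome was chosen from the array values themselves, because nearly all of its genes were higher in the H4 mutants V81A and K44A than in their control, hhf2-wt. Every value from those 2 comparisons is therefore a description, with no p. Where members past the threshold of the limma fit are counted there, the count describes the values and supports nothing. The other 7 mutants are tested.

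There were 11 strains, all labelled BY4742, and 2 independent cultures (a and b) of each, every culture on its own 2-colour array, which gave 22 arrays. The H3 mutants hht2-pm-Q5A, hht2-pm-R40A, hht2-pm-G44A, hht2-pm-R53A, hht2-pm-N108A and hht2-pm-L109A are set against hht2-wt, and the H4 mutants hhf2-pm-K44A, hhf2-pm-V81A and hhf2-pm-Y98A against hhf2-wt; the labels give no further alleles. Each strain was hybridised with a common wild-type reference RNA, and a level below is a log2 ratio of strain to reference. The labels put the strain RNA in Cy3 for the first culture and in Cy5 for the second, the series text gives the opposite order, and all signs below follow the labels.

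Each nuclear chromosome of yeast carries genes of unrelated functions, and most are transcribed one by one from their own promoters, so that neighbours do not usually share a level of expression. As background, a shift of one whole chromosome on expression arrays is known from yeast strains that carry that chromosome in an altered number of copies. These arrays measured RNA, and DNA copy number was not measured. Chromosome XIV holds, among others, genes of cytosolic and mitochondrial ribosomes, of ribosome assembly, of biotin, lysine and leucine synthesis, and of the cell wall.

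Median strain signals were 297 to 803 intensity units per array, and 348 of the 355 members were above background in the strain channel on all 22 arrays. The Y98A arrays stood apart in their mating-type genes. All 7 a-specific genes measured lay outside the range of the other 20 arrays, with a mean of 0.10 to 0.19 against 2.29 to 3.86, while 0 of 4 alpha-specific genes did (mean -4.63 to -4.35 against -4.77 to -3.76). All 22 arrays were thus far below the wild-type reference in alpha-specific genes although all strains carry one strain label. The sample titles carry a number whose meaning the labels do not give; it is 2 for V81A, K44A, Q5A, R40A, G44A and N108A, and 1 for both controls, R53A, L109A and Y98A.

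In V81A the block stood at 1.65 times its level in hhf2-wt, and in K44A at 1.31 times. The median log2 fold change over the 355 members was 0.72 in V81A (0.72 in culture a and 0.73 in culture b, each against the mean of the control cultures). In K44A it was 0.39 (0.39 in culture a and 0.38 in culture b). The residual SD between cultures of the chromosome XIV median, pooled over all 11 strains, was 0.01. The mean difference between cultures a and b, which also differ in dye, was taken out first. An array averages over the cells of a culture, so a shift in every cell and a larger shift in part of the cells cannot be told apart.

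The same medians were close to 0 in the other 7 mutants: 0.01 in Q5A, -0.00 in R40A, -0.06 in G44A, -0.00 in R53A, -0.03 in N108A, -0.00 in L109A and 0.01 in Y98A. A comparison of 2 cultures with 2 cannot give an exact permutation p below 0.333, so no p is given for a median. The remaining 15 nuclear chromosomes ran from -0.07 to 0.05 over both cultures of V81A and from -0.07 to -0.00 in K44A. In G44A the 2 cultures each had 1 other chromosome that stood apart, chromosome I at 0.38 in culture a (-0.01 in b) and chromosome VIII at 0.35 in culture b (0.05 in a). Chromosome XIV itself was at -0.06 and -0.05 in those cultures. Against the reference itself, the median level of the members was 0.71 in both V81A arrays and 0.40 and 0.38 in the K44A arrays, and -0.06 to 0.03 on the other 18 arrays. The V81A and K44A comparisons share the hhf2-wt cultures, but against hht2-wt, which neither is otherwise set against, the medians were 0.74 and 0.39.

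**Figure D1:**
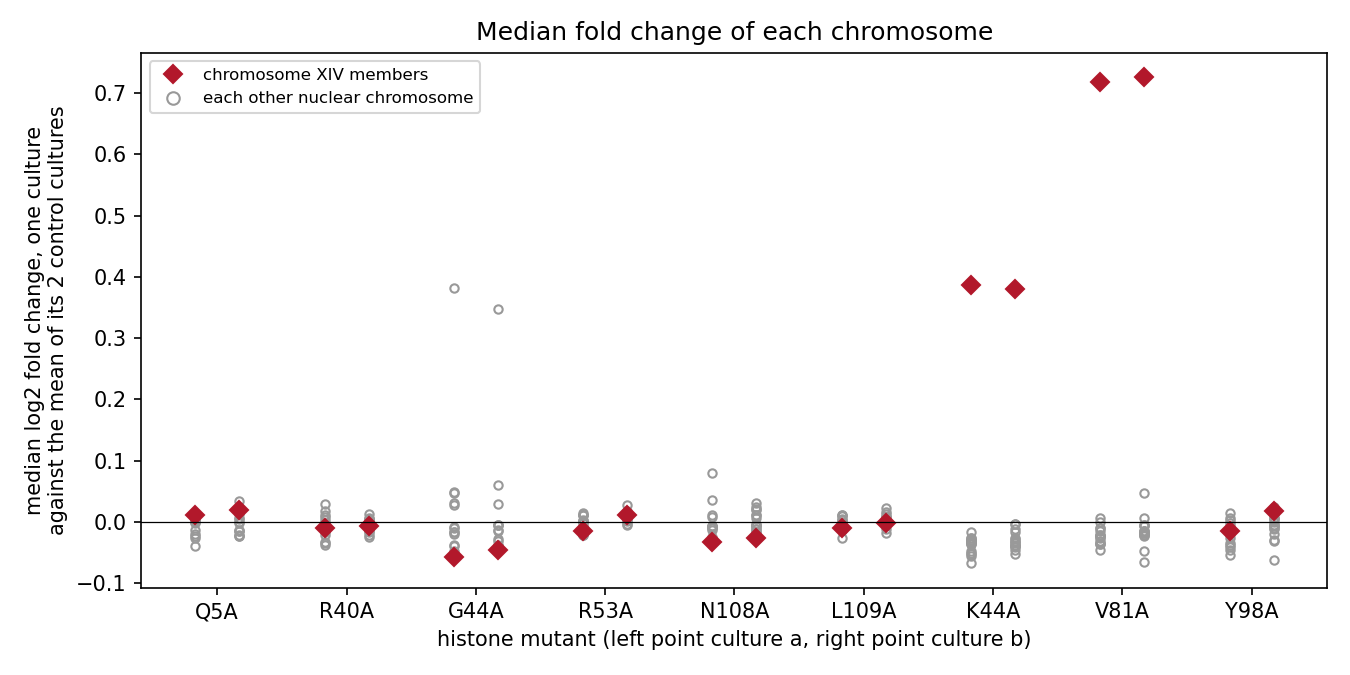
Median log2 fold change of each nuclear chromosome (vertical axis) in each culture of the 9 mutants (horizontal axis), against the mean of the control cultures of the same histone; filled diamonds are the chromosome XIV members and open circles the 15 other chromosomes. Chromosome XIV lies at 0.72 and 0.73 in V81A and at 0.39 and 0.38 in K44A, and the only other points above 0.3 are chromosome I in culture a and chromosome VIII in culture b of G44A.

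In V81A 343 of 355 log2 fold changes were above 0, the quartiles were 0.53 and 0.90, and 330 members were above both control cultures in both mutant cultures, against 29% of all probes. Past the threshold of the limma fit were 319 members on the higher side (16.8% of all probes) and 4 on the lower (17.1% of all probes). A 1.7-fold increase was reached by 149 members, against 3.46% of all probes. In K44A 338 members were above 0 and the quartiles were 0.26 and 0.51. There 285 were past the threshold on the higher side (15.9% of all probes) and 4 on the lower (13.6%), 20 reached 1.7-fold (1.27%), and 311 were above both control cultures in both mutant cultures (28.1%). These counts restate the choice of the chromosome and nothing is read from them.

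The shift is also described along the chromosome, in windows too wide to show a gap of a few genes. Since the chromosome was chosen because nearly all of its members were higher, windows above 0 add no support. When the members were put in order and divided into 18 windows of 19 or 20 probes, the window medians in V81A ran from 0.56 (TPM1 to GCD10) to 0.87 (ABZ1 to ESF2). In K44A they ran from 0.20 (the same window, TPM1 to GCD10) to 0.54 (HOL1 to YNR077C, at the right end). All 18 windows were above 0 in each culture of both mutants; the lowest single-culture median was 0.54 in V81A and 0.20 in K44A. Against hht2-wt in place of hhf2-wt, the TPM1 to GCD10 window stood at 0.55 in V81A and 0.23 in K44A and was again the lowest of the 18 in each. That window holds both RPL9B probes and RPL16B. The left and right arms had medians of 0.72 and 0.74 in V81A and of 0.38 and 0.44 in K44A. The 10 members nearest the left end and the 10 nearest the right end stood at 0.65 and 0.62 in V81A and at 0.50 and 0.48 in K44A.

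**Figure D2:**
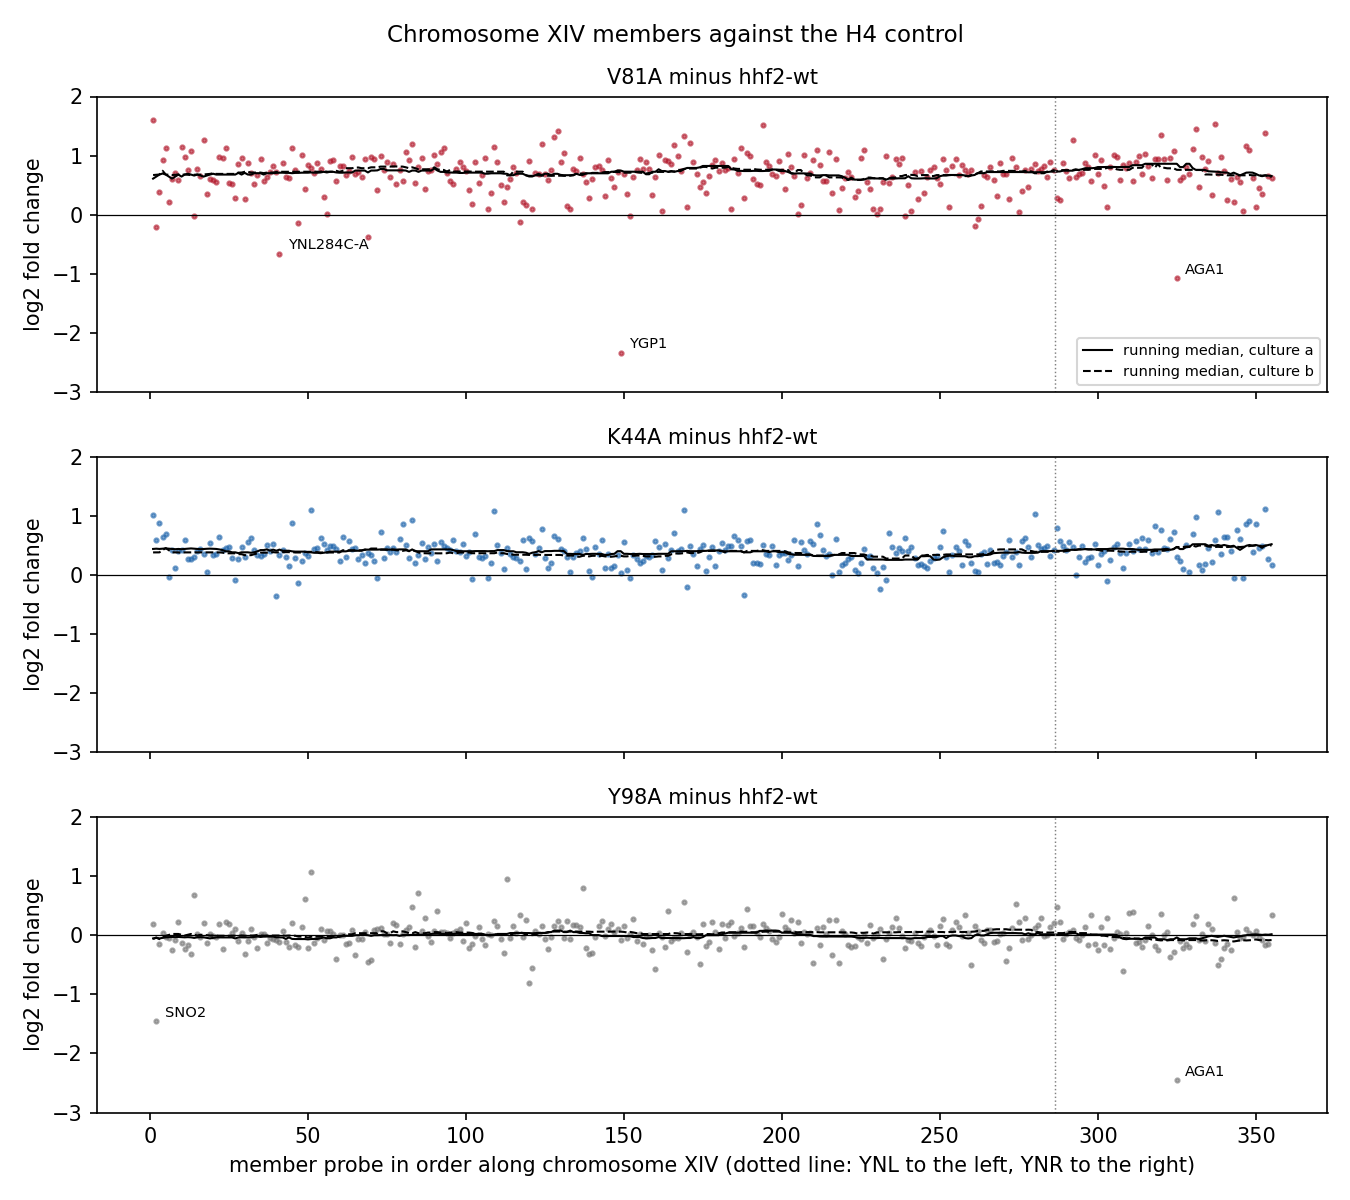
Log2 fold change against hhf2-wt (vertical axis) of each of the 355 members in their order along chromosome XIV (horizontal axis) in V81A, K44A and Y98A; points are fitted values over both cultures, and lines are running medians over 41 members in culture a (solid) and culture b (dashed). In windows of 19 or 20 members the medians range from 0.56 to 0.87 in V81A, from 0.20 to 0.54 in K44A and from -0.09 to 0.10 in Y98A, and the labelled YGP1, AGA1 and YNL284C-A are the farthest below in V81A.

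The size of the shift differed with the brightness of the probe. Members were split into 3 parts of 119, 118 and 118 by the ratio of reference signal to local background, which is measured on RNA that is the same on all arrays. The dimmest part (ratio 1.04 to 5.70) had a median log2 fold change of 0.56 in V81A, the middle part 0.76 and the brightest part 0.85. In K44A the values were 0.35, 0.38 and 0.42. The spread of members was wide in V81A, with an interquartile range of 0.37 against 0.17 to 0.29 on the other 15 chromosomes; in K44A it was 0.25, and 2 of the 15 had a larger one.

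Departure from the block is defined here as a probe's log2 fold change after the median of its chromosome was subtracted on every array. Past the threshold of the limma fit in V81A were 75 members above and 91 below, where 14.9% and 16.3% of all placed probes were so placed against their own chromosome. In K44A the counts were 48 above and 71 below (13.1% and 11.9% of placed probes). Since the chromosome was chosen on these comparisons, nothing is read from these counts. The K44A count of 119 was 77 without K44A culture b. A departure of at least 0.5 in both cultures was reached by 9 members above and 34 below in V81A (2.1% and 3.31% of placed probes) and by 8 above and 6 below in K44A (2.48% and 0.601%).

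YGP1, which encodes a secreted glycoprotein known to be made when nutrients run low, was the member farthest below the block in V81A. Its level was -1.86 and -1.74 in the V81A cultures against 0.62 and 0.45 in hhf2-wt, so the groups did not overlap. The log2 fold change was -2.33 ± 0.18 (SE, n = 2 cultures a group), and the departure was -3.06 ± 0.17. In K44A the YGP1 level was 0.52 and 0.62, within the control values, and its departure was -0.37 ± 0.17.

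AGA1, the cell wall anchor of the a-agglutinin used in mating, was next. It stood at -0.08 and 0.20 in V81A against 1.08 and 1.15 in the control, a log2 fold change of -1.06 ± 0.19 and a departure of -1.79 ± 0.18. PRM1, a pheromone-regulated protein of cell fusion, stood at -0.13 and -0.05 in V81A against -0.01 and 0.10, and its departure was -0.87 ± 0.08. The level of PRM1 in V81A was therefore about that of the control while its neighbours were higher. PRM1 also lay below the block in K44A, at -0.08 in both cultures, with a departure of -0.53 ± 0.08.

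SNO2, of a family linked to vitamin B6 synthesis, stood at -0.08 and 0.26 in V81A and at 0.30 in both control cultures (departure -0.94 ± 0.08). In K44A it was at 0.83 and 0.94, above the control and near the block (departure 0.18 ± 0.08). SNO1, its relative on chromosome XIII, was higher in both mutants, with log2 fold changes of 1.83 ± 0.12 in V81A and 1.07 ± 0.12 in K44A. Probes of this family may share signal, since its members are similar in sequence. The SNO2 values, here and in the other mutants, may therefore not be those of chromosome XIV alone.

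YNL284C-A, an open reading frame of a retrotransposon, and RTC4 lay below the block in V81A with departures of -1.38 ± 0.22 and -1.11 ± 0.23. Both rest on control cultures that differed from each other: YNL284C-A was at 1.39 and 0.55 in hhf2-wt and at 0.35 and 0.29 in V81A, and RTC4 was at 1.31 and 0.68 in hhf2-wt and at 0.46 and 0.77 in V81A. RTC4 thus overlapped between the groups. Without hhf2-wt culture a the departures were -0.99 and -0.71, and without culture b they were -1.78 and -1.51. Retrotransposon reading frames occur in many near-identical copies elsewhere in the genome, so the YNL284C-A probe cannot be tied to chromosome XIV alone.

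The other members on this side were the uncharacterised genes YNL034W (departures -0.92 ± 0.06 and -0.79 ± 0.06 for its probes) and YNL058C (-0.75 ± 0.10), the sporulation gene SLZ1 (-0.84 ± 0.06) and the hexose transporter relative HXT14 (-0.75 ± 0.06). All but YNL058C were dim, with a reference signal of 1.20 to 1.55 times background. A probe this near background can report a ratio near 0, and so can fall below a raised block whatever its RNA. Not every dim probe did so: DDI2, a dim probe described below, departed upward by 0.87 in V81A. The YNL034W probe at -0.92 also departed in 4 mutants other than V81A and K44A. Whether dimness set the departures of YNL034W, SLZ1 and HXT14 in V81A was not tested. SLZ1 stood at 0.23 and 0.13 in V81A against 0.27 and 0.32 in hhf2-wt. IGO1 was not above background on any of the 22 arrays, so no fold is given for it. In all, 12 of 355 probes had a log2 fold change below 0 in V81A.

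Among the members farthest above the block in V81A were BIO5, LEU4 and LYS9. BIO5, a transporter of a biotin precursor, was at 2.66 and 2.75 in V81A against 1.34 and 1.005 in hhf2-wt, a departure of 0.81 ± 0.13. Its neighbours in the biotin cluster were nearer to the block: BIO3 departed by 0.25 ± 0.11 and BIO4 by -0.03 ± 0.11. LEU4, which makes the first committed intermediate of leucine, was at 1.81 and 2.08 against 0.44 and 0.42 (departure 0.79 ± 0.08). LYS9, saccharopine dehydrogenase of lysine synthesis, was at 1.77 and 1.75 against 0.39 and 0.22 (departure 0.73 ± 0.09). For each of BIO5, LEU4 and LYS9 the V81A cultures lay above both control cultures. LEU9, the relative of LEU4 on chromosome XV, had a log2 fold change of 0.36 ± 0.08 in V81A and -0.15 ± 0.08 in K44A.

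DDI2, a cyanamide hydratase known to be induced by DNA damage, departed the most upward, by 0.87 ± 0.06, with levels of 1.59 and 1.46 in V81A against -0.04 and -0.10. Its near-identical copy DDI3 on chromosome VI had a log2 fold change of 1.65 ± 0.09, about that of DDI2 (1.60 ± 0.06). The names of these genes are exchanged among the synonyms of the gene table, and probes of such copies share signal, so the DDI2 value cannot be assigned to chromosome XIV. The reference signal of DDI2 was 1.41 times background.

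The remaining members of the upper side were the mitochondrial ribosomal protein genes RSM19 (0.61 ± 0.09) and MRPL19 (0.59 ± 0.07), the F1-ATPase assembly factor ATP11 (0.54 ± 0.07), the cell death effector AIF1 (0.65 ± 0.17), the uncharacterised YNL134C (0.60 ± 0.07) and YNL184C (0.69 ± 0.07), the lipid acyltransferase LRO1 (0.54 ± 0.05) and the ribosomal RNA acetyltransferase KRE33 (0.48 ± 0.08). YNL184C stood at 1.21 and 1.20 in V81A against -0.27 and -0.14 in hhf2-wt, and LRO1 at 1.28 and 1.15 against 0.05 and -0.15. Neither overlapped with its control. YNL184C and MRPL19 are neighbours on the chromosome.

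**Figure D3:**
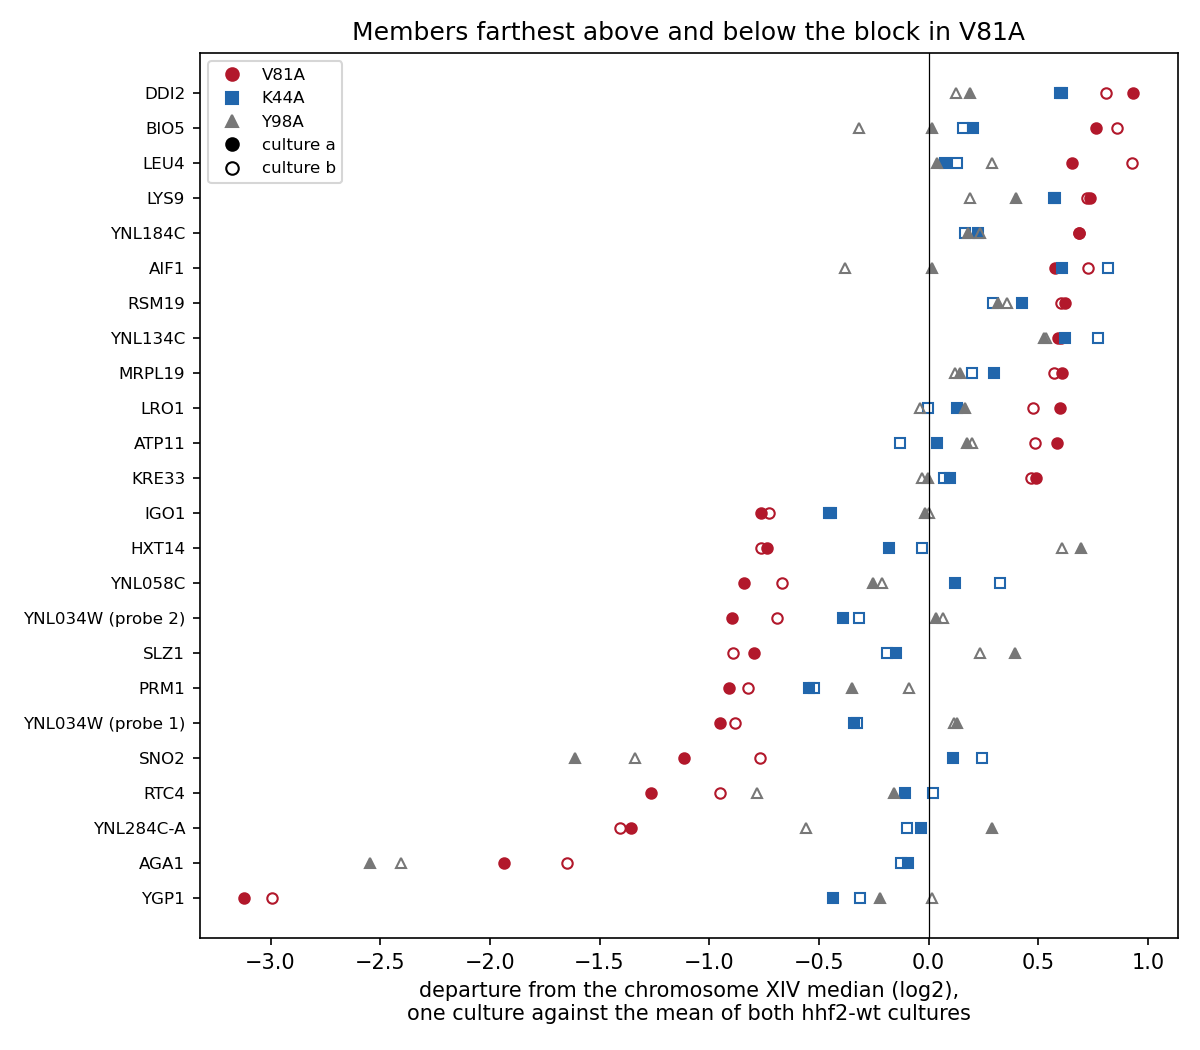
Departure from the chromosome XIV median in log2 units (horizontal axis) of the 12 members farthest above and the 12 probes farthest below the block in V81A (vertical axis), in V81A (circles), K44A (squares) and Y98A (triangles), with filled symbols for culture a and open symbols for culture b, each against the mean of both hhf2-wt cultures. In V81A YGP1 lies near -3 in both cultures, and AGA1 is the only other member below -1.6; in Y98A AGA1 lies near -2.5.

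In K44A the members farthest below the block were CUS2, DBP2 and RPL9B. CUS2, a splicing factor that acts on the U2 RNA, was at -0.01 and -0.03 in K44A against 0.34 and 0.35 in hhf2-wt, a departure of -0.77 ± 0.05. In V81A CUS2 was at 1.07 in both cultures, at the block itself (departure 0.00 ± 0.05). DBP2, an RNA helicase, was at 0.43 and 0.24 in K44A against 0.82 and 0.52 and departed by -0.75 ± 0.11. RPL9B, a protein of the large ribosomal subunit, departed by -0.64 ± 0.05 and -0.37 ± 0.05 for its probes. The levels of CUS2 and DBP2, relative to the bulk of genes, were below both control cultures in a strain in which 338 of 355 log2 fold changes were above 0.

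On the upper side in K44A stood AIF1 (departure 0.71 ± 0.17) and YNL134C (0.70 ± 0.07), both also among the 12 highest in V81A, and GOR1, a glyoxylate reductase (0.70 ± 0.13). GOR1 was at 1.49 and 1.44 in K44A against 0.35 and 0.37 in the control, and at 1.01 and 1.29 in V81A, where it departed by 0.06 ± 0.13. BIO4 departed by 0.65 ± 0.11 and SIS1, an Hsp40 chaperone, by 0.62 ± 0.09. YNL134C was at 1.28 and 1.41 in K44A and at 1.56 and 1.57 in V81A, against 0.21 and 0.27 in hhf2-wt.

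The cytosolic ribosome list holds 7 genes (8 probes), and its median departure was -0.35 in V81A and -0.30 in K44A, beside -0.00 and -0.01 over all placed probes. The departure was above 0 for 1 of the 8 probes in V81A, RPS7B (0.30 ± 0.06), and for 0 of 8 in K44A, where 2606 and 2551 of 5324 placed probes were above 0. RPS3, which has no duplicate in yeast, was at 0.11 and 0.19 in V81A and 0.11 and 0.09 in K44A, against -0.04 and 0.14 in hhf2-wt. The cultures of RPS3 overlapped with the control in K44A and in V81A, although the block was 0.39 and 0.72 above it. The same class on other chromosomes (120 probes) had a median departure of -0.04 in V81A and -0.06 in K44A. In Y98A the list had a median of 0.02 and 0 of 8 probes departed, where 15.4% of placed probes departed above and 16% below. The list also leaned below 0 in some H3 mutants. Its median was -0.15 in N108A (0 of 8 above 0), -0.13 in G44A (2 of 8) and -0.08 in Q5A (1 of 8). It was -0.01 in each of R40A, R53A and L109A. The class on other chromosomes had medians of -0.08 in N108A, -0.13 in G44A and 0.00 in Q5A. Under the other scalings the list median ran from -0.53 to -0.24 in V81A and from -0.44 to -0.30 in K44A, while in Y98A it ran from 0.02 to 0.20. These probes are among the brightest, with median reference signals of 4638 to 39074 units; the highest spots reached 64998 (RPL9B) and 65025 (RPS3), neither of them on an array of V81A, K44A or hhf2-wt.

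Most cytosolic ribosomal proteins have another copy elsewhere, and 4 such partners were measured under a name. RPS7B on chromosome XIV was at 0.90 and 1.08 in V81A against -0.07 and -0.01, while RPS7A on chromosome XV had a log2 fold change of -0.16 ± 0.11. RPL16A on chromosome IX (0.46 ± 0.07), RPL42B on chromosome VIII (0.36 ± 0.08) and RPS19A on chromosome XV (0.26 ± 0.07) were higher in V81A although they lie on chromosomes without a shift. Their chromosome XIV partners RPL16B, RPL42A and RPS19B departed by -0.18 ± 0.09, -0.26 ± 0.08 and -0.21 ± 0.07. Probes of such pairs may share signal, and how far the 2 copies are separated was not tested.

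All 11 probes of mitochondrial ribosomal proteins had a departure above 0 in V81A under each of the 6 scalings tried, and the median was 0.25. Matched by name alone, the class had 9 probes on chromosome XIV with a median of 0.22 and 61 on other chromosomes with a median of 0.16, and the difference was not tested. In K44A the list of 11 had a median of 0.01 and 6 of its departures were above 0, with RSM19 the highest (0.36 ± 0.09).

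Genes of ribosome assembly and of RNA polymerases I and III (26 probes) had a departure above 0 for 22 probes in V81A, with a median of 0.17; KRE33 was the highest and DBP2 the lowest (-0.45 ± 0.11). In K44A 13 were above 0 and the median was 0.01. The stress and chaperone list (14 probes) had 5 departures above 0 in V81A (median -0.23), from YGP1 to the Hsp90 cochaperone HCH1 (0.39). In K44A the same list had 6 above 0 and a median of -0.02. Of these probes IGO1 was not above background.

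Meiosis and sporulation genes (5 probes) had 0 departures above 0 in V81A and a median of -0.51, from SLZ1 to the peroxisomal enzyme SPS19 (-0.25 ± 0.06). MER1 and SPO1, among these, had reference signals of 1.24 and 1.51 times background, and MER1 was above background in the strain channel on 16 of 22 arrays. Probes this dim can fall below a raised block whatever their RNA, so the list median in V81A is not read as a change of these genes. Chromatin and transcription regulators (21 probes) had medians of -0.00 in V81A and -0.03 in K44A; RAP1, the telomere and promoter binding protein, was the lowest in both (-0.55 ± 0.09 and -0.47 ± 0.09). Respiration genes (17 probes) had 9 departures above 0 in V81A, from ATP11 to the outer membrane channel POR1 (-0.66 ± 0.09), and 11 above 0 in K44A. The lists for DNA replication, for transporters, for the cell wall, for mitochondrial import and secretion and for amino-acid synthesis had medians between -0.09 and 0.13 in V81A and between -0.07 and 0.08 in K44A. The 4 probes of gene families at the chromosome ends had medians of -0.35 in V81A and 0.13 in K44A. Under the other scalings the medians changed sign for chromatin and for respiration in V81A, and for mitochondrial ribosomes, ribosome assembly, meiosis and DNA replication in K44A.

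**Figure D4:**
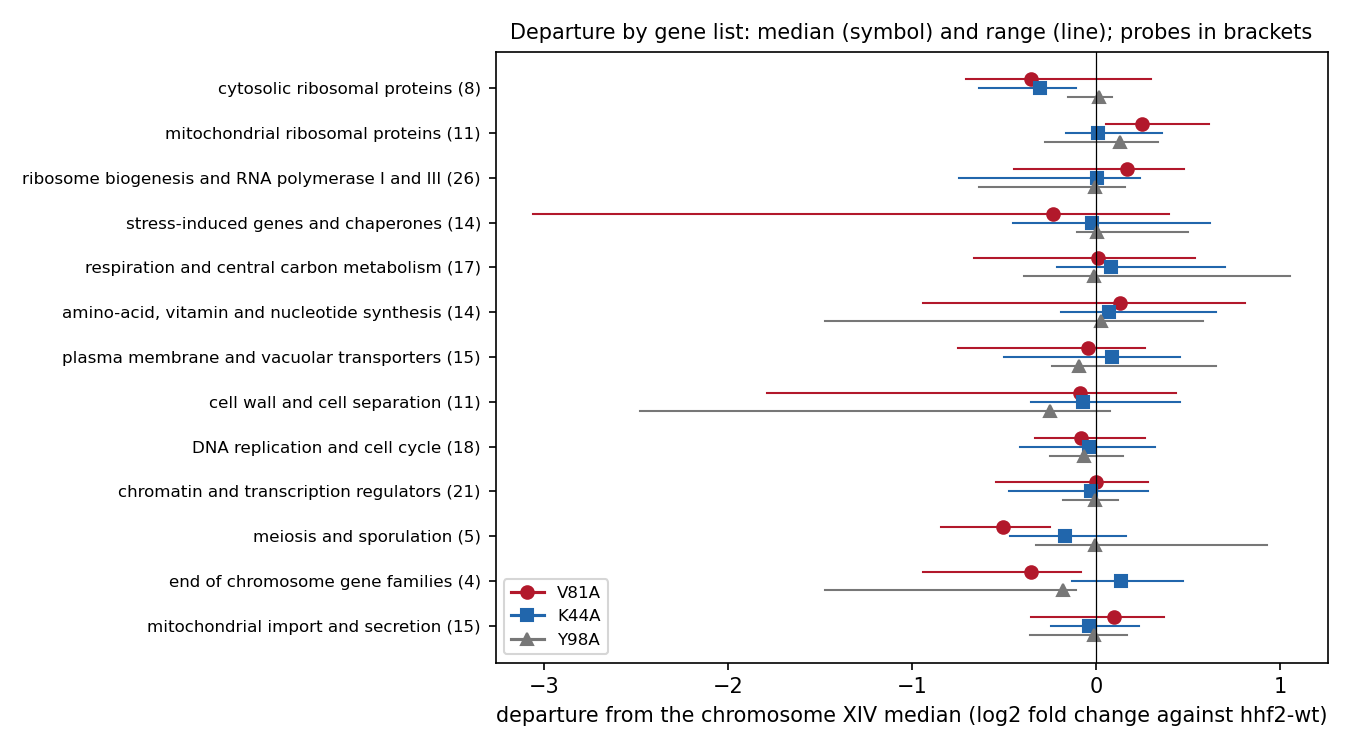
Departure from the chromosome XIV median in log2 units (horizontal axis) of 13 gene lists of chromosome XIV (vertical axis, number of probes in brackets) in V81A, K44A and Y98A; symbols are list medians and lines run from the lowest to the highest member. Cytosolic ribosomal proteins have medians of -0.35 in V81A, -0.30 in K44A and 0.02 in Y98A, and mitochondrial ribosomal proteins 0.25 in V81A.

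Where the block did not move, single members could be tested. In Y98A 56 members rose and 52 fell (13.9% and 16.7% of all probes) at an adjusted p below 0.05, and 44 departed above and 59 below (15.4% and 16% of placed probes). These calls together became 64 without Y98A culture b and 59 without hhf2-wt culture a, and the 103 departures 66 and 64. AGA1 fell: its level was -1.43 and -1.24 in Y98A against 1.08 and 1.15 in hhf2-wt, a departure of -2.48 ± 0.18 (limma adjusted p = 5.22e-08). The a-specific genes were outside the range of the other arrays in the same cultures, as given above, and their part in this result was not tested. SNO2 fell to -1.31 and -0.99 from 0.30 (departure -1.47 ± 0.08, limma adjusted p = 2.46e-09), while SNO1 rose by 2.31 ± 0.12 (limma adjusted p = 3.93e-09).

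The uncharacterised YNL193W stood at -0.72 and -0.75 in Y98A against 0.04 and 0.12 and fell (departure -0.84 ± 0.05, limma adjusted p = 7e-09). GOR1 rose to 1.42 and 1.45 from 0.35 and 0.37 (departure 1.05 ± 0.13, limma adjusted p = 2.25e-05). SPS19, an enzyme of fatty-acid breakdown, rose to 1.09 and 1.03 from 0.09 and 0.13 (departure 0.93 ± 0.06, limma adjusted p = 2.83e-08). MDG1, a protein of pheromone signalling, departed by 0.77 ± 0.08 (limma adjusted p = 5.49e-06). None of these overlapped with hhf2-wt. In the cell wall list 6 of 11 members fell and 0 rose, where 16.7% of all probes fell and 13.9% rose. The median departure of the list was -0.25, and -0.15 under median centring. The list includes AGA1, and the part of the mating-type difference of the Y98A arrays was not tested.

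In Q5A 36 members rose and 37 fell (7.7% and 11.2% of all probes), and 26 departed above and 43 below (8.77% and 12.3% of placed probes). The 73 calls became 36 without either Q5A culture, 42 without hht2-wt culture a and 48 without culture b; the 69 departures became 37, 38 and 39 without Q5A culture a, Q5A culture b and hht2-wt culture a. The biotin genes BIO3, BIO4 and BIO5 fell. BIO3, an aminotransferase of biotin synthesis, was at -0.19 and -0.02 in Q5A against 0.94 and 0.90 in hht2-wt, BIO4 at 0.44 and 0.46 against 1.32 and 1.39, and BIO5 at 0.19 and 0.15 against 0.93 and 1.20. The Q5A cultures of each lay below both control cultures. BIO3 departed by -1.04 ± 0.11 (limma adjusted p = 2.08e-05), BIO4 by -0.93 ± 0.11 (limma adjusted p = 2.68e-05) and BIO5 by -0.92 ± 0.13 (limma adjusted p = 0.000202). They lie next to each other on the right arm. AAH1, adenine deaminase, fell (-0.94 ± 0.12, limma adjusted p = 4.97e-05). LYS9 fell too (-0.53 ± 0.09, limma adjusted p = 0.00086), and LEU4 rose (0.44 ± 0.08, limma adjusted p = 0.00168). The largest rises were those of YNR064C, an epoxide hydrolase (0.61 ± 0.08, limma adjusted p = 0.000141), YNL208W (0.55 ± 0.09, limma adjusted p = 0.000455) and MET2 of methionine synthesis (0.46 ± 0.06, limma adjusted p = 6.35e-05).

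In G44A 77 members rose and 98 fell (23.9% and 22.4% of all probes), and 88 departed above and 76 below (23.8% and 22.3% of placed probes). DDI2 was at 1.19 and 1.20 in G44A against -0.07 and -0.05 in hht2-wt, and had its largest tested departure here, 1.30 ± 0.06 (limma adjusted p = 1.56e-09), and DDI3 rose by 1.30 ± 0.09 (limma adjusted p = 9.84e-08). YTP1 departed by 1.02 ± 0.11 (limma adjusted p = 5e-06). YGP1, far below the block in V81A, was at 1.61 and 1.19 in G44A against 0.39 and 0.53 and departed upward by 0.98 ± 0.17 (limma adjusted p = 0.000349). COS10, of a family at chromosome ends, departed by -0.75 ± 0.16 (limma adjusted p = 0.00157), with departures of -1.11 in culture a and -0.39 in culture b. AAH1 fell (-0.73 ± 0.12, limma adjusted p = 0.000121), and so did MPP6, a cofactor of the nuclear exosome (-0.57 ± 0.06, limma adjusted p = 1.27e-06).

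In N108A 58 members rose and 47 fell (16.6% and 12% of all probes), and 69 departed above and 34 below (16.2% and 11.8% of placed probes). The 105 calls became 63 without N108A culture a and 49 without hht2-wt culture a, and the 103 departures 61 and 48. Under median centring 27 of 62 calls were higher and 28 of 57 departures were above. The largest departures upward were those of DDI2 (0.98 ± 0.06, limma adjusted p = 8.99e-08), the membrane transporter gene PDR18 (0.82 ± 0.09, limma adjusted p = 9.71e-06) and AAD14, of the aryl-alcohol dehydrogenase family (0.81 ± 0.08, limma adjusted p = 5.56e-06). AAD14 was at 0.86 and 1.03 in N108A against 0.11 and 0.23 in hht2-wt, without overlap. PDR18 is near the right end and AAD14 near the left end. RAP1 departed by -0.44 ± 0.09 (limma adjusted p = 0.00291), a call lost without hht2-wt culture a (adjusted p = 0.0558), YIP3 by -0.39 ± 0.07 (limma adjusted p = 0.00111) and the cell wall gene SUN4 by -0.39 ± 0.06 (limma adjusted p = 0.000465).

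In R40A 40 members rose and 18 fell (9.8% and 4.95% of all probes), and 41 departed above and 15 below (9.5% and 4.79% of placed probes). The 58 calls became 19 without R40A culture a, 32 without hht2-wt culture a and 31 without culture b; the 56 departures became 17, 32 and 29. ATX1, a copper chaperone, was at 0.26 and 0.14 in R40A against -0.34 and -0.33 in hht2-wt and departed by 0.53 ± 0.08 (limma adjusted p = 0.000416) and MPP6 fell (-0.35 ± 0.06, limma adjusted p = 0.000563). YGP1 (0.62 ± 0.17, limma adjusted p = 0.0263), YTP1 (0.55 ± 0.11, limma adjusted p = 0.00443), FMP41 (-0.36 ± 0.07, limma adjusted p = 0.00304) and the transporter AQR1 (-0.37 ± 0.10, limma adjusted p = 0.0211) passed as well. Without R40A culture a these 4 had adjusted p values of 0.361, 0.0824, 0.0503 and 0.131, and departures of 0.31, 0.43, -0.32 and -0.36. YGP1 thus moved from 0.62 to 0.31; its departures were 0.96 in culture a and 0.28 in culture b. AQR1 also missed the threshold without R40A culture b (adjusted p = 0.074) and without hht2-wt culture b (0.175), as did YGP1 (0.0502) and YTP1 (0.0608) without hht2-wt culture b, and YGP1 without hht2-wt culture a (0.164).

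No member passed the limma test in R53A or in L109A. Higher calls over all probes were 0.579% in R53A and 0% in L109A, and lower calls 0.0939% and 0.0626%. Departures were 0 of 355 in each as well, where 0.563% of placed probes were above and 0.0939% below in R53A, and 0% above and 0.0376% below in L109A. At an unadjusted p below 0.05 there were 19 members in R53A (9.1% of all probes) and 9 in L109A (4.23%). With a fit of only the 4 arrays compared, 15 members were called in R53A and 0 in L109A, and 14 and 1 departed. The percentages above belong to the model over all arrays, and no share over all probes is given for the smaller fit. Its counts are therefore not read as particular to the members.

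Departures were also counted across mutants; the comparisons share control cultures, so the counts are not independent. Leaving out V81A and K44A, 114 members departed in 0 of the other 7 mutants, 97 in 1, 68 in 2, 46 in 3, 26 in 4 and 4 in 5. The share in 4 or more was 8.45% of members and 7.16% of all placed probes, and the share in 0 was 32.1% and 28.4%. The members departing in 5 were LAP3, SNO2, TEP1 and YNR014W. LAP3, a cysteine aminopeptidase, departed above in each of its 5: by 0.45 ± 0.06 in Y98A (limma adjusted p = 5.15e-05), 0.37 ± 0.06 in Q5A (0.000599), 0.27 ± 0.06 in R40A (0.00779), 0.51 ± 0.06 in G44A (9.38e-06) and 0.27 ± 0.06 in N108A (0.00399). In V81A and K44A it stood 0.47 ± 0.06 and 0.52 ± 0.06 above the block. SNO2 departed in the same 5, above in R40A, G44A and N108A and below in Q5A and Y98A. YNL208W and DDI2 departed above in Q5A, R40A, G44A and N108A. AAD14 departed above in R40A, G44A and N108A and below in Q5A, and BIO4 above in G44A and N108A and below in Q5A and Y98A.

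HHT2 and HHF2 lie on the same chromosome and were left out of the block. HHT2 was at -1.29 and -1.36 in V81A against -2.04 and -2.35 in hhf2-wt, and at -3.45 and -3.57 in R53A against -2.03 and -2.21 in hht2-wt. HHF2 was at -0.11 and 0.07 in V81A, at -0.60 and -0.73 in K44A, and at -0.85 and -0.96 in hhf2-wt. Their near-identical copies HHT1 and HHF1 on chromosome II stood at -0.72 and -0.69 and at -0.24 and 0.14 in V81A, against -1.22 and -1.27 and -0.79 and -0.64 in hhf2-wt. Probes of these copies may share signal, which was not tested. HHT2 and HHT1 had log2 fold changes of -1.39 and -0.18 in R53A but -0.43 and -0.37 in Q5A. HHF2 and HHF1 had 0.55 and 0.09 in N108A but -0.37 and -0.35 in Q5A. In V81A all 4 genes were higher, and the shift of HHT2 and HHF2 was not separated from that of the chromosome II copies.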

How the data were processed

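Signal intensity and local background of both channels were read from the deposited ImaGene output, in which, per the file headers, nothing had been subtracted. The authors' value table of log2 ratios, made by print-tip loess (span 0.4) per the deposited protocol text, served as an alternative; the authors' table of fold changes was not used. Here the background was corrected with normexp (offset 50), ratios were normalised by global loess within each array (span 0.3, control spots at weight 0), turned to strain over reference, and averaged over the 2 spots of a probe. A shift of a whole chromosome is therefore relative to the bulk of genes, and the number of arrays limits the precision.

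One model over all 22 arrays (limma 3.58.1, R 4.3.3) held 11 strain means and a term for dye, which coincides with the culture letter; adjusted p-values are Benjamini-Hochberg values over 6388 probes, or over the 5324 placed probes for departures. The letters were taken as pairing the cultures of different strains only as far as this shared term: culture differences correlated by over 0.1 in 52 of 55 pairs of strains (median r 0.387, lowest -0.125). A probe above background exceeded it by 2.6 background SDs. Names and order come from the R64 gene table, since the files name no build, and 1062 probes stayed unnamed. P-values measure the spread between the cultures. The fits were also run on simulated data with independent noise for each probe and array and no dye or culture effect. Those data lack the correlation of culture differences given above, so the run does not cover it. Named are the 12 highest and 12 lowest departures in V81A, up to 3 on each side in each other mutant, up to 6 members departing in most mutants, and list extremes; their values in other mutants, partner genes on other chromosomes, RPS3 and its class, the biotin genes in V81A, and BIO5, LYS9 and LEU4 in Q5A were added after their values were seen. Members, lists and tests were chosen with earlier results of these data known.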

Additional observations from a re-analysis of the deposited data

How the results depend on the processing

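Block medians kept their direction in V81A and K44A under all alternatives. The chromosome was chosen on these comparisons and the alternatives reuse the cultures of these mutants, so the kept direction adds no support. V81A was 0.71 with print-tip loess, 0.74 with chromosome XIV probes at weight 0 in the loess, 0.74 against hht2-wt and 0.68 as a mean; K44A was 0.41 with those probes at weight 0. G44A was -0.038 with the value table and -0.0055 as a mean, R53A -0.017 with median centring, and the means were -0.0097 in Q5A, 0.017 in R40A and 0.010 in N108A. With 1 culture left out, the lone culture assumed to vary like the other strains, medians ran from 0.70 to 0.72 in V81A, 0.38 to 0.39 in K44A, -0.015 to 0.020 in Y98A, 0.0021 to 0.017 in Q5A, -0.015 to 0.0037 in R40A, -0.053 to -0.043 in G44A, -0.014 to 0.0032 in R53A, -0.029 to -0.020 in N108A and -0.014 to -0.00089 in L109A.

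Called members ran from 309 to 315 in V81A, 242 to 257 in K44A, 59 to 76 in Y98A, 36 to 48 in Q5A, 19 to 40 in R40A, 126 to 163 in G44A and 49 to 82 in N108A without 1 culture. Departing members ran from 122 to 140 in V81A, 77 to 88 in K44A, 64 to 79 in Y98A, 37 to 52 in Q5A, 17 to 39 in R40A, 126 to 153 in G44A and 48 to 84 in N108A; R53A and L109A stayed at 0. Fewer samples are left in these fits. No share over all probes is given for the alternative fits of this paragraph. A change in these counts is therefore not read as particular to the members. The V81A and K44A counts restate the choice of the chromosome, and nothing is read from them. With median centring calls were 41 in Q5A, 18 in R40A and 62 in N108A, and departures 44, 20 and 57, and 68 in K44A. Without the replicate block (the dye and culture term) calls were 35 in Q5A, 29 in R40A, 68 in N108A and 70 in Y98A, and departures 36, 30 and 64, and 76 in K44A. Fitting only the 4 arrays compared gave 28 calls in Q5A, 38 in R40A and 15 in R53A, and 38 departures in Q5A, 67 in N108A, 14 in R53A and 1 in L109A. The cause was not tested except where fewer samples entered. With print-tip loess 40 of 82 departures in Q5A were above the block and 44 of 89 with the deposited values, against 26 of 69, and with median centring 17 of 20 in R40A, against 41 of 56.

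Of 893 values of named genes under alternatives, 0 changed sign, 14 lost a call and 47, all in V81A or K44A, moved by over 1 SE. Beside those given above, AQR1 in R40A missed with median centring, without the replicate block and with a running median as the centre, and YGP1 in R40A without the replicate block. Leaving out the Y98A arrays, an alternative chosen after seeing the data, kept the medians within 1 SD and the counts within 1.5 times in the other 8 mutants. On 3 columns of the value table the sign was opposite to the scanner ratios (r -0.985 to -0.982, against 0.935 to 0.991 on the other 19), and they were turned by sign. A probe at background in both channels reports a ratio near 0 whatever its RNA. In V81A and K44A such a probe therefore lies below the block by about the block median, 0.72 and 0.39. Where the block did not move, the departure of such a probe stays near 0. A probe that is only dim can still depart there. YNR064C, with a reference signal of 1.38 times background, departed by 0.61 in Q5A.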

Other observations

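Departures in K44A and V81A were also set side by side with a separate control for each, a comparison added after seeing the data. With K44A against hht2-wt and V81A against hhf2-wt, the departures of the 355 members had Pearson's r of 0.44 and Spearman's rho of 0.41 across genes, which are not independent replicates. With the controls exchanged, r was 0.41 and rho 0.38. Over probes of the other chromosomes r was 0.23 in both. Probe brightness is shared by both sides, and dim members can fall below both raised blocks, which can raise r over the members. Members departing by at least 0.5 on the same side in both mutants numbered 6 and 8 with these pairs of controls, and 0 departed by that much on opposite sides. No share over other probes is given beside these counts. Since the chromosome was chosen on V81A and K44A, nothing is read from the counts or from r.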
